A study of Mus musculus with 49 samples.

Results

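The cyclases and phosphodiesterases described here are 37 mouse genes whose products make or break down the cyclic nucleotides cAMP and cGMP. They were chosen by name from the gene count table, as every protein-coding gene with a symbol of the Adcy, Gucy1 or Pde series, and they are 37 of 21896 protein-coding genes and of 52636 genes in all. The group holds 10 adenylyl cyclases, 4 subunits of soluble guanylyl cyclase and 23 genes named as phosphodiesterases. Pde6d, which encodes a chaperone of prenylated proteins, and Pde12, whose enzyme has other substrates, match by name only.

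The study compared ways of reading RNA from the medium spiny neurons (MSNs) of the mouse nucleus accumbens (NAc), which carry either the dopamine receptor D1 or D2. All mice were on a C57BL/6J background, and each sample came from 1 mouse. Nuclei were sorted from frozen NAc of Drd1-cre or Drd2-cre mice crossed with Thy1-loxPSTOPloxP-EGFP-F, giving 6 D1 and 5 D2 nuclear libraries. Whole cells were freed with papain from fresh NAc of mice with a cytoplasmic fluorophore under the Drd1 or Drd2 promoter and then sorted. They gave 8 D1 and 6 D2 libraries as grouped here. The labels name 8 D2 samples, and the paper counts more whole cell samples of both cell types than these libraries. RiboTag RNA was pulled down with HA-tagged ribosomes from fresh NAc of Drd1-cre or Drd2-cre mice crossed with Rpl22-loxPexon4loxP-exon4-HA, giving 6 D1 and 6 D2 libraries labelled male and 5 D1 and 5 D2 labelled female. Nuclear and whole cell libraries were all labelled male, the labels name no treatment, and ages were not given in the sources used here. The promoter or Cre driver alone defines each cell type, and Drd2 is also active in cholinergic interneurons, so a labelled population need not be pure MSNs. Library type is tied to mouse line, tissue state and dissociation, whose effects cannot be told apart from it.

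Adenylyl cyclases turn ATP into cAMP. In MSNs the D1 receptor raises their activity through the G protein Golf, and the D2 receptor lowers it through Gi proteins, while the adenosine receptor encoded by Adora2a raises it in D2 cells. Soluble guanylyl cyclase is a dimer of an alpha and a beta subunit that makes cGMP when it binds nitric oxide. Phosphodiesterases end both signals. Adcy5 is known as the main striatal adenylyl cyclase, and Pde10a and Pde1b as phosphodiesterases enriched in MSNs.

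RiboTag libraries held 24076888 to 45641342 counts, whole cell ones 10476223 to 27965357 and nuclear ones 3701255 to 68777008. The 10 highest genes of a library held 84.9 to 88.3% of RiboTag counts, over 60% of the counts in nuclear D1 libraries 1, 5 and 6, and over 30% in whole cell D2 libraries 2 and 6. The 37 genes together held 0.0656 to 0.0972% of RiboTag counts and 0.245 to 1% of those in the other libraries. Labels were checked against marker lists. Drd1 was lower and Drd2 higher in D2 libraries of every method, but the 5 D2-MSN markers (Drd2, Adora2a, Penk, Gpr6, Sp9) summed to a median of 55.5 FPKM (fragments scaled to the length of the gene span and to library size) in nuclear D1 and 15.2 in nuclear D2, against the label, whereas whole cells gave 30.5 and 310.5. Penk was 2.41 lower on the log2 scale in nuclear D2. The 5 D1-MSN markers (Drd1, Pdyn, Tac1, Isl1, Chrm4) followed the label, with median sums of 8.55 FPKM in nuclear D1 and 4.57 in nuclear D2. Those sums did not overlap, and 1 of the 4 tested in nuclei was called. In 6 RiboTag libraries labelled male, the female transcript Xist exceeded the sum of 4 Y-linked genes (D1 numbers 1 to 4, D2 numbers 2 and 6), so the sex label is used below as a label only.

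Gene counts covered whole gene bodies, introns included, and genes with long introns take up reads from unspliced RNA or DNA. A yardstick for such reads came from 1295 olfactory and vomeronasal receptor genes that overlap no other gene, which NAc neurons are not known to use widely. Their mean level was 0.0573 FPKM in nuclear D1, 0.279 in nuclear D2, 0.229 in whole cell D1 and 0.177 in whole cell D2, and 0.000233 to 0.000345 in RiboTag groups. All levels below are FPKM over the gene span, normalised separately within each method, so levels are compared between cell types of a method, and between methods only in a joint fit.

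Among the 37 genes, Pde1b had the highest mean level per gene span in all 8 groups. It encodes a calcium and calmodulin dependent phosphodiesterase of both cyclic nucleotides. Its share of the summed level of the 37 genes was 52.8% in RiboTag D1 and 50.6% in RiboTag D2 of the male label, and 31.4% and 30.8% in whole cell D1 and D2. In nuclei the share was 22.4% in D1 and 7.86% in D2. Per kilobase of exon its shares were lower, at 23.4% and 22.6% in RiboTag D1 and D2 of the male label, 9.55% and 9.38% in whole cell D1 and D2, and 5.48% and 1.65% in nuclear D1 and D2.

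Most of the RiboTag signal came from 6 of the 37 genes. Pde1b, Adcy5, Gucy1b1, Gucy1a1, Pde2a and Pde10a together gave 85.8 to 89% of the summed RiboTag level, 57% in whole cell D1, 64.7% in whole cell D2, 54.6% in nuclear D1 and 30.4% in nuclear D2. Which gene leads depends on the length used, since Pde10a spans 461 kb and Pde1b 27 kb. Per kilobase of exon, Pde1b, Adcy5 and Pde10a led in RiboTag libraries, Pde10a was first in whole cell D2 and nuclear D1, and Pde4d, with a span of about 1500 kb, was first in nuclear D2. There the receptor gene level amounted to 38.8 to 59.5% of the Pde4d counts. Shares of the summed level were not corrected for the receptor gene level. The 20 genes that passed no filter below gave 37.7% of the sum in nuclear D2 and 1.61 to 2.08% in RiboTag groups.

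**Figure D1:**
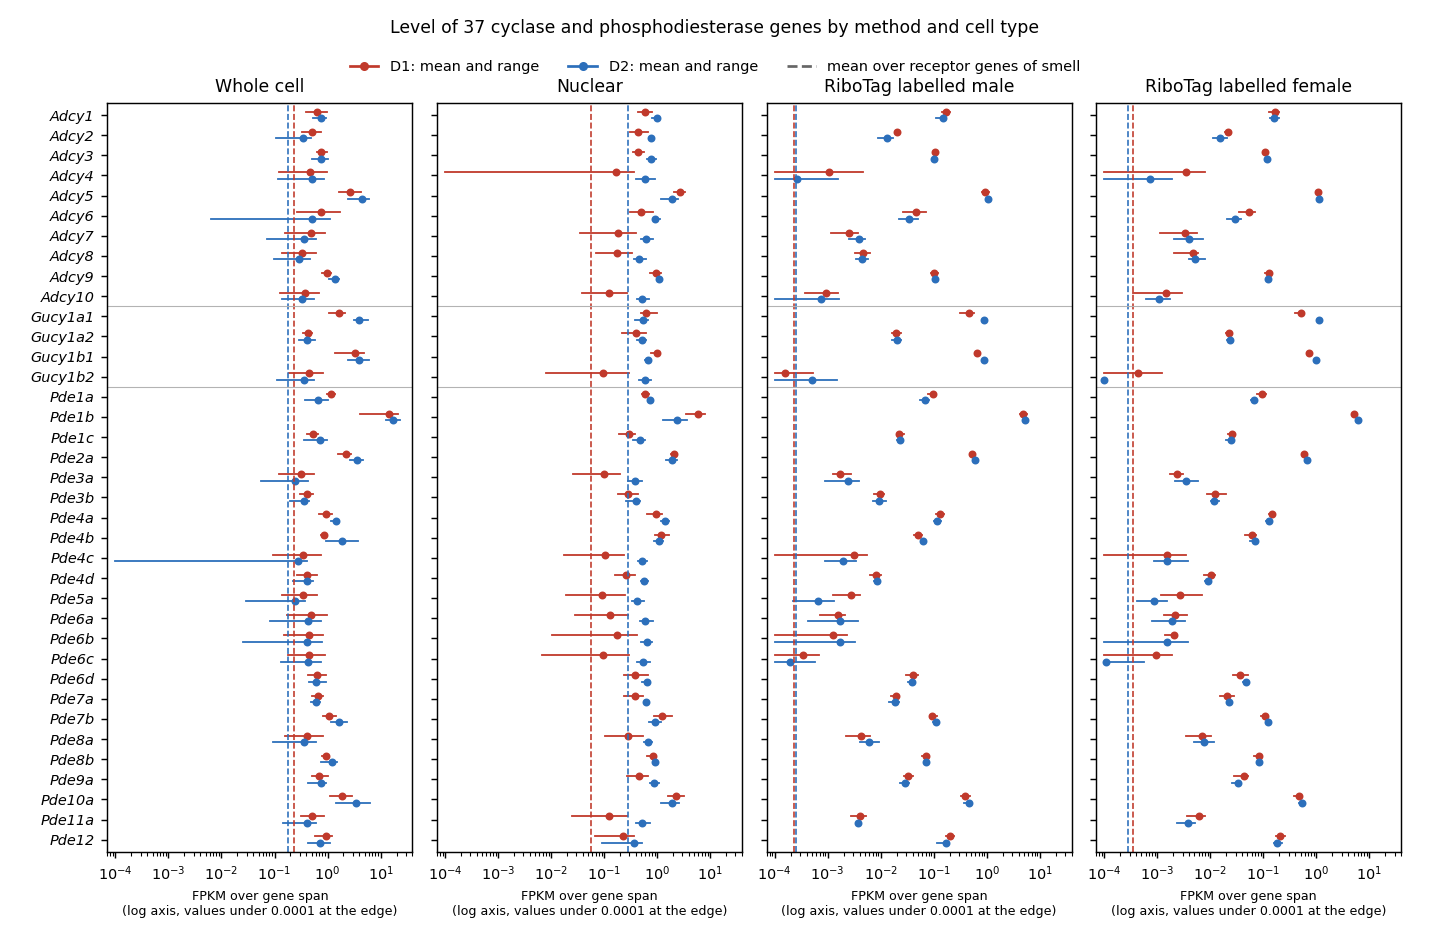
Level of each of the 37 genes by method, in FPKM over the gene span on a log axis, with D1 and D2 group means as points, the range over libraries as lines and the mean of the olfactory and vomeronasal receptor genes as dashed lines. In all libraries of the group, 17 of the 37 genes exceeded the dashed level by over 2 times in whole cell D2 and 15 in nuclear D2, against 30 to 32 in the RiboTag groups, whose levels reach from near 0 to above 5 FPKM for Pde1b. In RiboTag groups a gene can exceed it with as few as 2 counts, as Adcy10 did in D2 of the female label.

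At the other end, 11 genes had at most 50 counts in every RiboTag library: Adcy4, Adcy6, Adcy7, Adcy10, Gucy1b2, Pde3a, Pde4c, Pde5a, Pde6a, Pde6b and Pde6c. Gucy1b2, a beta subunit gene, was at 0 in 14 of 22 RiboTag libraries, where 3 counts correspond to at most 0.125 CPM (counts scaled to library size). Pde6c, the cone photoreceptor enzyme, was at 0 in 12 of the 22. In whole cell and nuclear D2 libraries Gucy1b2 and Pde6c had median ratios to the receptor gene level of about 1.85 to 2.45, so counts for such genes there lay close to that yardstick. The number of the 37 genes above 2 times the yardstick in all libraries of a group was 14 in whole cell D1, 17 in whole cell D2, 26 in nuclear D1, 15 in nuclear D2 and 30 to 32 in RiboTag groups. The RiboTag yardstick is so low that a few counts can pass it. Adcy10 did so in D2 of the female label, with a lowest count of 2 and a lowest ratio of 2.05.

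The first question was how D1 and D2 cells differ within each method. Of the 37 genes, 17 passed the filter on low values in at least 1 comparison, 10 passed in all and 20 passed in none. Genes were tested with edgeR's quasi-likelihood test over all genes that passed, with Benjamini-Hochberg adjustment, and a gene was called when its adjusted p was at most 0.05, its absolute log2 fold change was above 0.38 and its mean count was above the 25th percentile (in nuclei also a standard error below the 75th percentile). Positive log2 fold changes mean higher in D2. In RiboTag libraries of the male label 3 of 13 tested genes were called, where 2.56% of 6784 genes were (6, and 9.15%, by adjusted p alone), and in those of the female label 3 of 13, where 1.9% of 7057 were (5, and 4.52%, by adjusted p alone). In whole cells 3 of 16 were called against 0.764% of 16352 genes, and in nuclei 4 of 13 against 12.1% of 9228. Without the 6 male-labelled libraries against their sex label the first of these counts was 2, with Pde1a untested. Leaving out nuclear D2 library 2 or 5 lowered the nuclear count to 2, and leaving out D1 libraries 1, 5 and 6 lowered it to 1, Adcy1. The whole cell count was 1 without D1 library 1, 3, 4, 5, 6 or 7 or D2 library 3, 5 or 6, and 5 without D2 library 1, and leaving out D2 libraries 2 and 6 gave 4, with Pde1a added. The p-values measure the spread between mice of this study. Passing the filter already requires a gene to be high somewhere, and 8 of the 13 genes tested in nuclei did so through D1 libraries alone, so these counts describe the genes tested and not the 37.

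**Figure D2:**
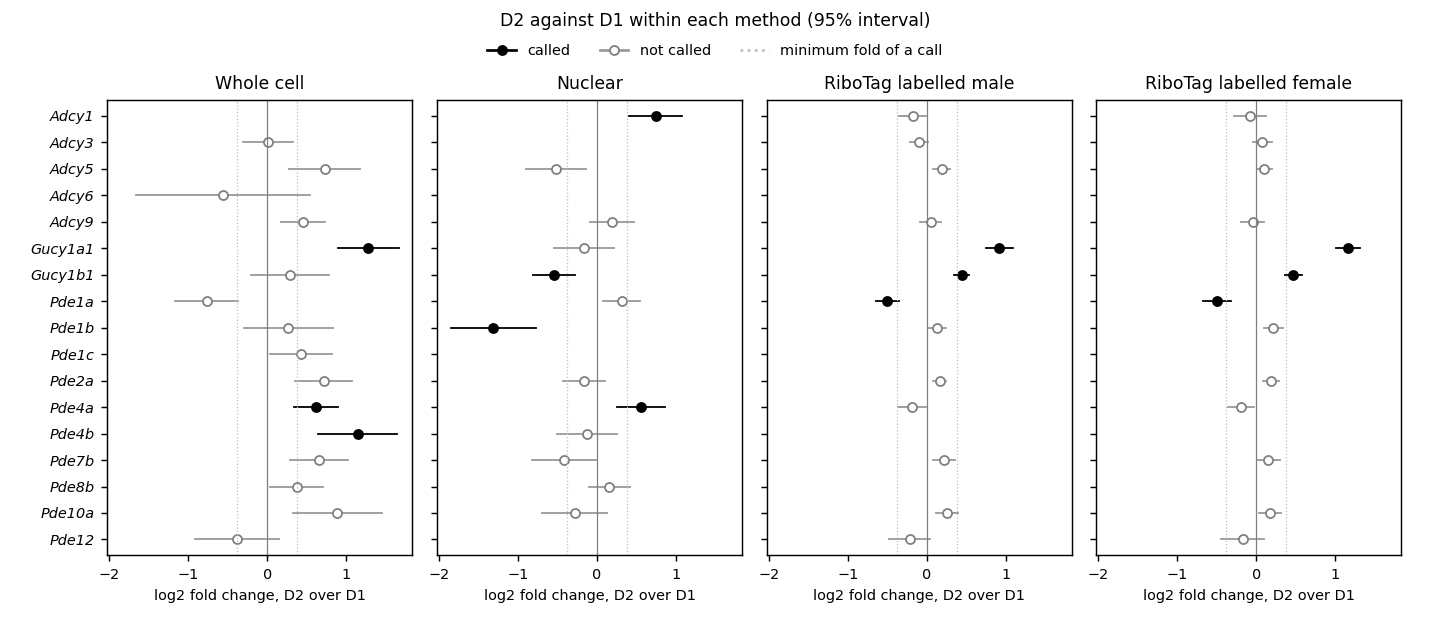
Log2 fold change of D2 over D1 with 95% intervals for the 17 tested genes in each method, where filled points were called and dotted lines mark 0.38 in either direction. Gucy1a1 lies above 0 in whole cells and in both RiboTag sets, at 1.28, 0.92 and 1.16, and at -0.16 in nuclei.

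The subunit genes Gucy1a1 and Gucy1b1 of soluble guanylyl cyclase were higher in D2 than in D1 ribosome-bound RNA, by 1.36- to 2.24-fold, and had the smallest adjusted p of the tested cyclases and phosphodiesterases in both RiboTag sets. Gucy1a1 encodes an alpha subunit and lies at chr3:82092427-82145789 on the minus strand (GRCm38, ENSMUSG00000033910), with the microRNA gene Mir7010 inside it on the same strand. Gucy1b1 encodes the common beta subunit and lies at chr3:82032006-82074689 on the same strand (ENSMUSG00000028005), 17.7 kb away with no annotated gene between them. Their promoter windows around RefSeq transcript starts (GRCm38.p6) are shown because the genes are neighbours and were higher together in D2 RiboTag libraries, with capitals for the GC box GGGCGG and the CRE core TGACG or their reverse complements.
Gucy1a1 promoter, chr3:82145601-82145900, minus strand: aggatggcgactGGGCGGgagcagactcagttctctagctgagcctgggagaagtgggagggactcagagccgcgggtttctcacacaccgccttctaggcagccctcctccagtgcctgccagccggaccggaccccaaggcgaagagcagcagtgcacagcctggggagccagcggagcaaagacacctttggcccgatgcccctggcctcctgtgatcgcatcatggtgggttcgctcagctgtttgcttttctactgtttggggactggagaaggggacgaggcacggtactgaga
Gucy1a1 promoter, chr3:82145024-82145323, minus strand: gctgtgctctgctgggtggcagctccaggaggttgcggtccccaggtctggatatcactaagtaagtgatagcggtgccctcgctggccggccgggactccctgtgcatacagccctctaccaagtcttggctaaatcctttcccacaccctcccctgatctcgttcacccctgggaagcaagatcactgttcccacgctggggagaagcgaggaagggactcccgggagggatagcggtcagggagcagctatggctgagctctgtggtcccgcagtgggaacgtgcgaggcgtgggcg
Gucy1b1 promoter, chr3:82074662-82074961, minus strand: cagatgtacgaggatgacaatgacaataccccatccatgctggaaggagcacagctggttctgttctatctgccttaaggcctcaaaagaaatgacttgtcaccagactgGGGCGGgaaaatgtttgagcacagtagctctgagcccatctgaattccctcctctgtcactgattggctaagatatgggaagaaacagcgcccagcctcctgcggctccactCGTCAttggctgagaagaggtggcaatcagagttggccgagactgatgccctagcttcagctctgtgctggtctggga
The upstream Gucy1a1 window held 1 GGGCGG and the other held neither motif, while the Gucy1b1 window held 1 GGGCGG and 1 TGACG, written CGTCA on this strand. On either strand GGGCGG occurred in 35.7% of 32851 RefSeq promoter windows of this length and TGACG in 20.8%, and the full CRE, TGACGTCA, in 1.79%. Of the 54 windows of the 29 genes with an entry, 22 held GGGCGG, 10 held TGACG and 0 held TGACGTCA, and a match describes letters and not binding.

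In RiboTag libraries labelled male, Gucy1a1 ran from 0.311 through a median of 0.487 to 0.562 FPKM in D1 and from 0.803 through 0.892 to 0.981 in D2. Every D2 library was above every D1 library. The log2 fold change was 0.92 (SE 0.0882, 95% interval 0.75 to 1.09, adjusted p = 7.25e-08 by edgeR's quasi-likelihood test). In libraries labelled female the D1 values were 0.573, 0.521, 0.401, 0.561 and 0.455 FPKM, and the D2 values were 1.21, 1.08, 1.05, 1.185 and 1.08. Again the groups did not overlap, and D2 exceeded D1 by 2.24-fold (log2 1.16, SE 0.0783, edgeR adjusted p = 1.71e-09). In bulk RNA such as this, fewer cells of a type and less RNA per cell cannot be told apart.

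Gucy1b1 was also higher in D2 RiboTag libraries. With the male label it ran from 0.591 through 0.65 to 0.699 FPKM in D1 and from 0.833 through 0.883 to 0.951 in D2, a log2 fold change of 0.44 (SE 0.0485, edgeR adjusted p = 4.82e-07). With the female label the D1 values were 0.787, 0.680, 0.653, 0.75 and 0.702, and the D2 values 1.03, 0.945, 0.979, 0.955 and 1.04, a log2 fold change of 0.47 (SE 0.0556, edgeR adjusted p = 1e-05). All D2 libraries lay above all D1 libraries in both sets. Separation without overlap held for 4.55% of all genes tested with the male label and for 4.95% with the female label, and among the tested cyclases and phosphodiesterases for Gucy1a1 and Gucy1b1 in both and for Pde2a with the female label.

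The ratio of Gucy1a1 to Gucy1b1 level per gene span was higher on average in D2 than in D1 for each method. It averaged 0.713 ± 0.112 (SD, n = 6) in D1 and 0.999 ± 0.0984 (n = 6) in D2 with the male label, and 0.701 ± 0.066 (n = 5) and 1.14 ± 0.0817 (n = 5) with the female label. Whole cells gave 0.536 ± 0.129 (n = 8) in D1 and 1.02 ± 0.149 (n = 6) in D2. Nuclear ratios were 0.638 ± 0.157 (n = 6) and 0.831 ± 0.183 (n = 5), with overlapping groups. They were not corrected for the receptor gene level. In nuclear D2 that level amounted to 39.8 to 69.2% of the Gucy1a1 counts and 29.4 to 66% of the Gucy1b1 counts. In nuclear D1 it amounted to 1.18 to 27.6% and 0.603 to 19.5%. The size of each ratio depends on the lengths used, and it was not tested.

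In whole cells Gucy1a1 was again higher in D2. It ran from 1.045 through 1.68 to 2.18 FPKM in D1 and from 3.15 through 3.23 to 5.81 in D2, with every D2 library above every D1 library, which held for 1.01% of genes tested. The log2 fold change was 1.28 (95% interval 0.89 to 1.66, edgeR adjusted p = 0.00193), and it was 1.46 (adjusted p = 0.00691) without the D2 libraries 2 and 6 that were led by few genes. The call ended with DESeq2 size factors (log2 1.49, edgeR adjusted p = 0.0565), with no FPKM filter (1.47, adjusted p = 0.0766) and where gene length was the sum of exons (1.46, adjusted p = 0.0782). Gucy1b1 overlapped, from 1.41 through 3.45 to 4.94 in D1 and from 2.45 through 3.31 to 6.05 in D2, and was not called (log2 0.29, edgeR adjusted p = 0.726).

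In nuclei neither gene was called higher in D2. Gucy1a1 ran from 0.504 through 0.55 to 1.002 FPKM in D1, and its D2 values were 0.683, 0.541, 0.577, 0.561 and 0.387 (log2 -0.16, edgeR adjusted p = 0.584). Gucy1b1 ran from 0.759 through 1.00 to 1.15 in D1, above its D2 values of 0.705, 0.657, 0.651, 0.588 and 0.744. Separation without overlap held for 12.9% of all nuclear genes tested. Gucy1b1 was called lower in D2 (log2 -0.54, SE 0.137, 95% interval -0.81 to -0.28, edgeR adjusted p = 0.0201). Gucy1b1 passed the nuclear filter through 4 D1 libraries and 0 D2 libraries, which favours a gene that is high in D1. In nuclear D2 the receptor gene level amounted to 39.8 to 69.2% of the Gucy1a1 counts and to 29.4 to 66% of the Gucy1b1 counts. The Gucy1b1 call was lost when D2 library 1, 2, 3 or 5 was left out (adjusted p = 0.0531, 0.0508, 0.0525 and 0.0755) and without D1 libraries 1, 5 and 6 (log2 -0.42, adjusted p = 0.0622). The other subunit genes, Gucy1a2 and Gucy1b2, passed the filter in no method.

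**Figure D3:**
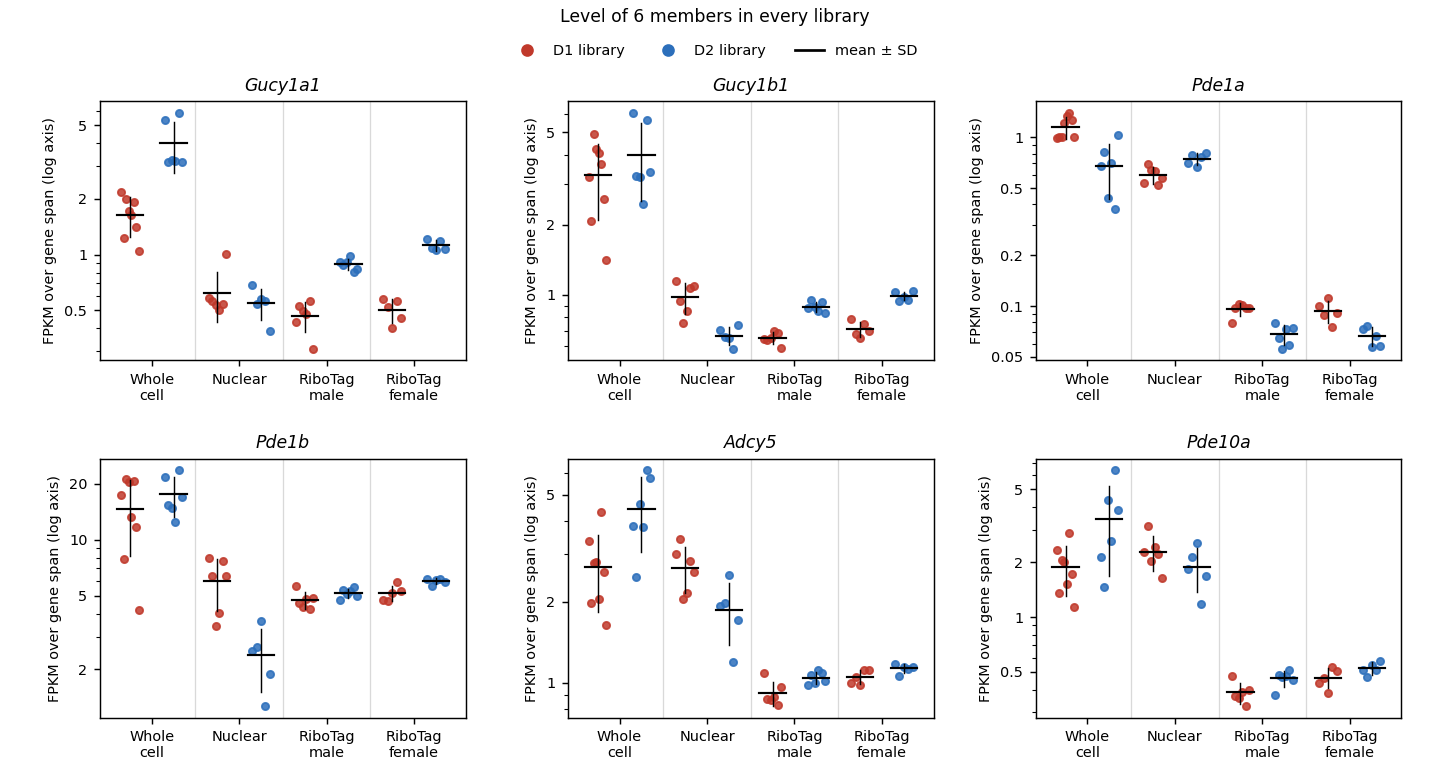
Level of Gucy1a1, Gucy1b1, Pde1a, Pde1b, Adcy5 and Pde10a in each library, in FPKM over the gene span on a log axis, by method and cell type, with group means ± SD. Gucy1a1 separates D1 from D2 in whole cells and RiboTag sets, while the whole cell Pde1b groups, at 14.6 ± 6.39 and 17.5 ± 4.33, overlap.

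Pde1a and Pde1b encode calcium-regulated phosphodiesterases. Pde1a was lower in D2 RiboTag libraries. With the male label it ran from 0.0790 through 0.0975 to 0.103 FPKM in D1 and from 0.0560 through 0.0692 to 0.0799 in D2, so that only the lowest D1 library, number 1, fell within the D2 range. The log2 fold change was -0.50 (SE 0.0761, 95% interval -0.65 to -0.35, edgeR adjusted p = 6.1e-05). With the female label the D1 values were 0.0995, 0.0890, 0.112, 0.0754 and 0.0909 and the D2 values 0.0731, 0.0761, 0.0574, 0.0664 and 0.0583, which overlap at 1 library of each type. There the log2 fold change was also -0.50 (SE 0.0917, edgeR adjusted p = 0.00173). Pde1a passed the RiboTag filter only through D1 libraries, 2 of 6 and 2 of 5, so it had to be high there. With no FPKM filter it was still called, at -0.50 (adjusted p = 0.000141) and -0.49 (adjusted p = 0.00891). Leaving out D1 library 1, 3 or 4 of the male label, or any D1 library of the female label, left Pde1a untested.

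In whole cells Pde1a ran from 0.985 through 1.11 to 1.39 FPKM in D1 and from 0.377 through 0.69 to 1.03 in D2, overlapping at the lowest D1 and highest D2 values (log2 -0.77, edgeR adjusted p = 0.0688). It passed the filter through 5 D1 libraries and 0 D2 libraries, which favours a gene that is high in D1. The edgeR adjusted p was 0.0326 without the D2 libraries 2 and 6 and 0.521 with no FPKM filter (log2 -1.04 and -0.67). In nuclei its sign was positive and it was not called (log2 0.31, adjusted p = 0.0899).

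Pde1b was the nuclear gene with the largest difference among those tested here. It ran from 3.44 through 6.39 to 7.96 FPKM in nuclear D1, and the D2 values were 2.52, 2.66, 3.65, 1.27 and 1.88. The groups overlapped at 1 D2 library, number 3. It was 2.49-fold lower in D2 (log2 -1.32, SE 0.274, 95% interval -1.85 to -0.78, edgeR adjusted p = 0.0108), and the call was lost without D1 libraries 1, 5 and 6 (log2 -1.01, adjusted p = 0.0568). In RiboTag libraries Pde1b averaged 4.73 ± 0.491 FPKM (n = 6) in D1 and 5.17 ± 0.288 (n = 6) in D2 with the male label. With the female label the D2 values of 6.12, 5.60, 6.06, 6.15 and 5.94 overlapped with 1 of the D1 values of 4.70, 4.70, 5.14, 5.88 and 5.29, at a log2 fold change of 0.22 that met the adjusted p (0.0363, edgeR) and not the fold limit. Whole cell groups averaged 14.6 ± 6.39 (n = 8) and 17.5 ± 4.33 (n = 6) and overlapped (log2 0.27, adjusted p = 0.802).

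The Pde4 genes encode phosphodiesterases specific for cAMP. Pde4a ran from 0.688 through 0.907 to 1.19 FPKM in whole cell D1 and from 1.16 through 1.52 to 1.60 in D2, overlapping by a narrow margin (log2 0.62, SE 0.144, edgeR adjusted p = 0.0483). In nuclei it ran from 0.651 through 0.958 to 1.22 in D1, against D2 values of 1.17, 1.40, 1.32, 1.47 and 1.67, with 1 D2 library inside the D1 range (log2 0.56, SE 0.155, edgeR adjusted p = 0.0285). It passed the whole cell filter in 1 of 8 D1 and 6 of 6 D2 libraries. The whole cell call sat close to the threshold, and was lost when D1 library 1, 3, 4, 5, 6 or 7 or D2 library 3, 4, 5 or 6 was left out, at adjusted p from 0.072 to 0.11. The nuclear call was lost without D1 library 1 or 5 or D2 library 2, 5 or 7 (adjusted p from 0.0505 to 0.0701), and without D1 libraries 1, 5 and 6 together (log2 0.31, adjusted p = 0.151). In RiboTag libraries its sign was negative and it was not called.

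Pde4b ran from 0.737 through 0.839 to 0.937 FPKM in whole cell D1 and from 0.93 through 1.47 to 3.83 in D2. The highest D1 library was just above the lowest D2 library, and the D2 libraries were widely spread. It was called at log2 1.15 (SE 0.255, 95% interval 0.65 to 1.64, edgeR adjusted p = 0.0374), having passed the filter in 1 of 8 D1 and 5 of 6 D2 libraries. Leaving out any of D1 libraries 1 to 7 or D2 library 3, 5 or 6 ended the call, at adjusted p from 0.0506 to 0.0846, and without D2 library 5 the log2 fold change was 0.82. It was not tested in RiboTag libraries, where its mean levels were 0.0508 to 0.0686 FPKM.

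Pde10a and the cGMP-stimulated Pde2a hydrolyse both cAMP and cGMP, and both were higher on average in D2 in RiboTag and whole cell libraries without meeting the full rule. Pde10a ran from 0.326 through 0.377 to 0.477 FPKM in RiboTag D1 and from 0.375 through 0.472 to 0.513 in D2 with the male label, with overlap (log2 0.26, edgeR adjusted p = 0.0277). With the female label the D1 values were 0.435, 0.466, 0.384, 0.532 and 0.506 and the D2 values 0.516, 0.467, 0.548, 0.511 and 0.577 (log2 0.17, adjusted p = 0.248). Both sets thus had D2 libraries inside the D1 range. In whole cells it ran from 1.13 through 1.87 to 2.90 in D1 and from 1.45 through 3.23 to 6.36 in D2 (log2 0.88, adjusted p = 0.142). Nuclear D1 ran from 1.63 through 2.24 to 3.14 and the D2 values were 1.83, 2.13, 2.55, 1.18 and 1.69 (log2 -0.28, adjusted p = 0.365). Groups overlapped in each case.

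Pde2a separated the RiboTag cell types with the female label, with D1 values of 0.564, 0.591, 0.539, 0.60 and 0.627 FPKM below D2 values of 0.688, 0.637, 0.652, 0.659 and 0.682. The difference was small, at log2 0.18 (edgeR adjusted p = 0.0372), and was 0.17 with the male label (adjusted p = 0.0116). Counts of Pde2a may include reads of Gm45837 and Mir139, which overlap it on the same strand at chr7:101421691-101512827. Counting ignored strand, so overlapping genes on the opposite strand may add reads to others of the 37. Examples are Gm25179 at Adcy5, Cenpo at Adcy3, Arf4 at Pde12 and Gm15425, Gm15426 and Gm17087 at Pde10a. In whole cells Pde2a averaged 2.20 ± 0.522 FPKM (n = 8) in D1 and 3.61 ± 0.813 (n = 6) in D2 (log2 0.71, adjusted p = 0.0638).

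Of the adenylyl cyclases, 1 was called, and in nuclei only. Adcy1, a calmodulin-stimulated cyclase, ran from 0.438 through 0.552 to 0.794 FPKM in nuclear D1, below all D2 values of 0.799, 0.992, 0.903, 1.14 and 1.14, a separation that 12.9% of nuclear genes showed. The log2 fold change was 0.74 (SE 0.171, 95% interval 0.41 to 1.08, edgeR adjusted p = 0.0138). Adcy1 passed the filter through 2 D1 libraries and 0 D2 libraries, and its sign depends on scaling: with DESeq2 size factors the median of all nuclear genes moved to -0.77 and Adcy1 to -0.11, which is 0.65 above that median, as against 0.71 above it under TMM scaling. Pde4a likewise moved to -0.24, while Pde1b moved to -2.19 and Gucy1b1 to -1.39. Adcy5 (-1.37), Pde10a (-1.11) and Gucy1a1 (-0.98), not called under TMM scaling, were called lower in D2 there (edgeR adjusted p = 0.00357, 0.0122 and 0.0054). Relative to the median they lay at -0.60, -0.35 and -0.21, as against -0.55, -0.31 and -0.19 under TMM scaling. With no FPKM filter they were also called lower, at -1.69, -1.43 and -1.30, beside a median of 0.26 over all genes. In that setting Adcy1 was at -0.46 and Pde4a at -0.56, neither called. Relative to its median they lay at -0.72 and -0.82, so their place relative to the median also depends on the filter.

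Adcy5 ranked next to Pde1b per gene span in RiboTag and whole cell D2 libraries. With the male RiboTag label it ran from 0.826 through 0.875 to 1.08 FPKM in D1 and from 0.978 through 1.04 to 1.11 in D2, with overlap (log2 0.19, edgeR adjusted p = 0.0339, under the fold limit). With the female label the D1 values were 0.998, 1.05, 0.982, 1.12 and 1.11 and the D2 values 1.18, 1.06, 1.14, 1.12 and 1.14 (log2 0.10, adjusted p = 0.338). Whole cells ran from 1.64 through 2.69 to 4.30 in D1 and from 2.47 through 4.22 to 6.16 in D2 (log2 0.73, adjusted p = 0.133). In nuclei D1 ran from 2.05 through 2.70 to 3.42 and the D2 values were 1.93, 1.98, 2.52, 1.19 and 1.71 (log2 -0.52, adjusted p = 0.0799). The groups overlapped in each of the 4 comparisons.

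Across methods, the tested genes shared signs in some pairs and not in others. Of the 13 genes tested in both RiboTag sets, 11 had the same sign, the others being Adcy3 and Adcy9. Whole cell signs matched 10 of 12 in each RiboTag set. Nuclear signs matched whole cell signs in 3 of 12 genes and RiboTag signs in 1 of 11 and 0 of 11, and with DESeq2 size factors in 1 of 12, 3 of 11 and 4 of 11, when all 13 nuclear values were below 0. In whole cells 13 of 16 genes had a positive sign, where 46.6% of all genes tested did, and the median was 0.44 against -0.04 for all genes. The filter bears on these signs. Pde1c and Adcy3 passed it through 1 D2 library alone, and Pde4a, Pde4b, Pde8b and Adcy9 mainly through D2 libraries. Pde1a and Adcy6 passed through D1 libraries alone. The signs thus describe the genes tested and not the 37.

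Other cell types' markers also differed in summed level between D1 and D2 groups, in both directions. In RiboTag libraries 4 cortical glutamatergic markers summed to a median of 2.52 FPKM in D1 and 0.495 in D2 with the male label and to 1.27 and 0.164 with the female label. GABA interneuron markers summed to 6.67 and 3.28, and to 8.16 and 3.37, and cholinergic markers to 0.124 and 0.549, and to 0.103 and 0.406. Endothelial markers summed to 0.0604 and 0.00823, and to 0.192 and 0.00649. The shared MSN markers were higher in RiboTag D2, at 29.7 in D1 and 43.7 in D2 with the male label and 34.0 and 49.9 with the female. Those shared MSN sums did not overlap in either RiboTag set. In whole cells they were 70.4 in D1 and 75.2 in D2, with overlap. In nuclei the shared MSN markers summed to 28.3 FPKM in D1 and 9.83 in D2, oligodendrocyte markers to 25.9 and 16.3, and GABA interneuron markers to 12.9 and 4.90. Astrocyte markers summed to 8.28 and 4.44 there. Sums were higher in nuclear D2 for endothelial (0.73 and 2.78), cholinergic (1.02 and 1.83), cortical glutamatergic (3.95 and 5.1) and microglial markers (3.02 and 3.89). The nuclear ranges overlapped for all these lists but the shared MSN markers, and 0 of 6 oligodendrocyte markers were called. Only 1 of these markers was at 0 in every library of a group for which its sum is given, an endothelial marker in RiboTag D2 of the female label. Their part in the differences above was not tested.

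A joint fit of the 37 libraries labelled male asked whether the D2 to D1 difference itself depended on the method. All 37 genes were tested among 29901. Between nuclei and whole cells, 21 of the 37 differed, where 20.6% of all genes did. Of the 21, 7 were higher (5.1% of all genes) and 14 lower (15.5%). The 14 had a lower D2 to D1 log2 ratio in nuclei, by -2.75 for Pde1b, -2.65 for Gucy1a1, -2.42 for Pde4b, -2.38 for Adcy5, -2.30 for Pde10a, -2.20 for Pde7b, -2.06 for Gucy1b1 and -2.0 for Pde2a, and by less for Adcy9, Pde8b, Pde4a, Pde1c, Adcy1 and Gucy1a2. The median over all genes was 0.33. The other 7, Adcy7, Adcy10, Gucy1b2, Pde3a, Pde5a, Pde6a and Pde11a, were higher by 1.2 to 1.94, and in whole cells and nuclear D2 their median levels were 1.31 to 2.29 times the receptor gene level.

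Those 2 sets behaved differently under other processing. After the receptor gene level was subtracted, 13 of the 14 lower calls were kept and 3 of the 7 higher ones, and without the libraries led by few genes 13 of 14 and 2 of 7. With DESeq2 size factors 11 of 14 and 7 of 7 were kept, while the split of all called genes moved from 1526 higher and 4626 lower to 3275 and 3406. In nuclear D2 the median ratio of level to receptor gene level was 2.03 for Gucy1a1, 2.83 for Gucy1b1 and 8.6 for Pde1b, and in nuclear D1 it was 21.6 for Gucy1a1 and 266 for Pde1b. Whether that background accounts for the difference was not tested beyond this subtraction.

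**Figure D4:**
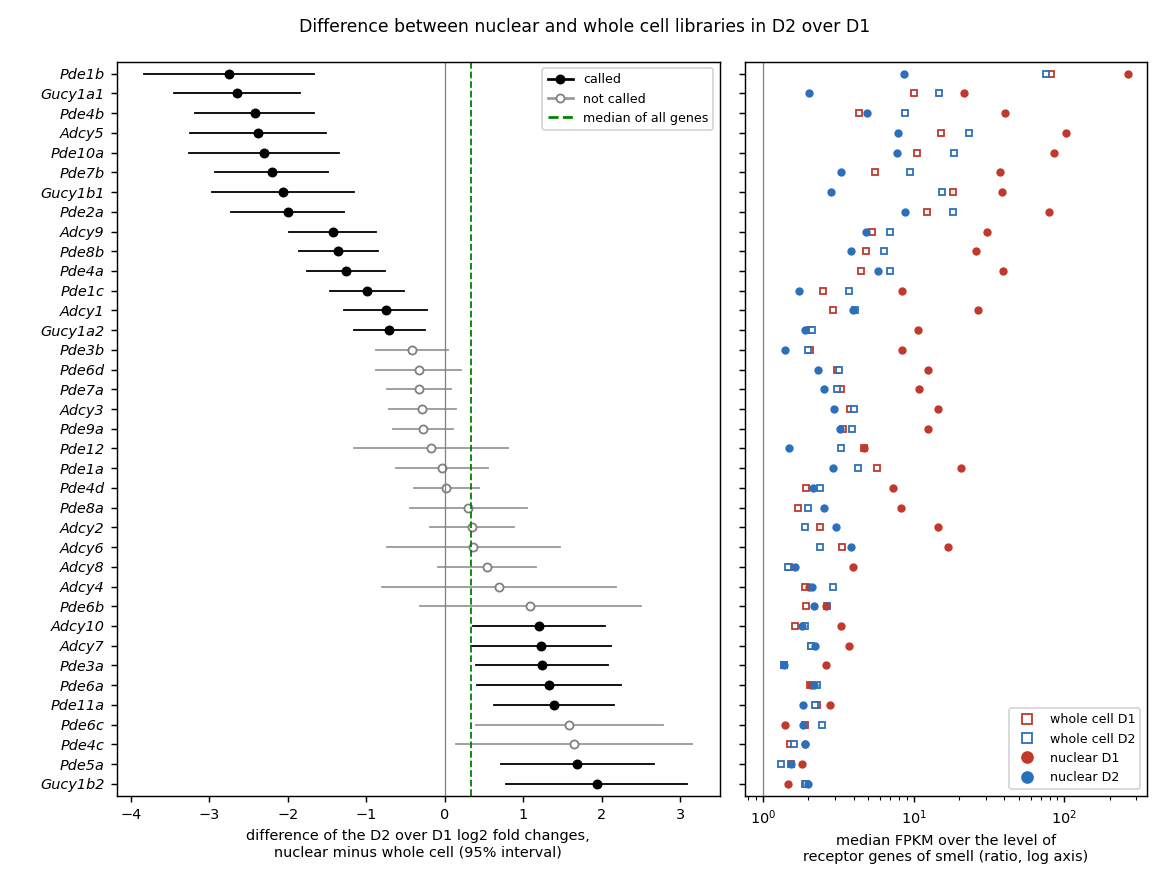
Left, the D2 to D1 log2 fold change in nuclei minus that in whole cells for the 37 genes, with 95% intervals and the median of all genes (0.33) as a dashed line. Right, the median ratio of each gene's level to that of the receptor genes in whole cell and nuclear groups, where the 7 genes called higher on the left lie at 1.31 to 2.29 in whole cells and nuclear D2.

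Between RiboTag and whole cells the same test called 0 of the 37 and 0.0903% of all genes (27) by edgeR. At an unadjusted p under 0.05 there were 4 of the 37 and 1337 genes, and DESeq2 called 1 of the 37. For Gucy1a1 the difference was -0.48 (95% interval -1.24 to 0.28) and for Pde1b -0.18 (-1.21 to 0.85), intervals wide enough to hold differences of over 1 log2 unit.

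Levels were also compared between methods within a cell type, in the same fit. In D2, 13 of the 37 differed between nuclei and whole cells, where 18.7% of genes did, with 2 higher in nuclei (2.59% of all genes) and 11 lower (16.1%). Gucy1a1 was lower by -3.11 (95% interval -3.76 to -2.47), Pde1b by -3.06, Gucy1b1 by -2.84, Adcy5 by -1.40, Pde2a by -1.09 and Pde10a by -1.04, beside a median of 0.14 over all genes. Adcy2 (1.15) and Pde8a (0.86) were higher. Without whole cell D2 library 5, 8 of the 37 were called. With DESeq2 size factors the split was 6 higher and 6 lower, and over all genes it moved from 775 and 4824 to 1407 and 3412.

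In D1, 19 of the 37 differed, where 17.3% of genes did, with 13 higher in nuclei (9.73% of all genes) and 6 lower (7.61%). Without the libraries led by few genes 15 were higher and 1 lower. Pde4b (1.49), Pde10a (1.26), Pde7b (1.23), Pde4a (1.08), Adcy1 (1.06) and Adcy5 (0.98) were among those higher, beside a median of -0.32. Without nuclear D1 library 2, 12 of the 37 were called. Pde1b (-0.31, 95% interval -1.02 to 0.40) and Gucy1a1 (-0.47, interval -1.0 to 0.07) were not called in D1. The difference between D1 and D2 in these values is the one tested in the joint fit above.

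RiboTag libraries differed from whole cells in 31 of the 37 in D1, where 60.4% of all genes did, and in 31 of the 37 in D2, where 61.2% did. In D1 10 were higher in RiboTag (20.4% of all genes) and 21 lower (40%), and in D2 8 (20.8%) and 23 (40.4%). Adcy5 (1.85), Pde1b (1.74), Adcy1 (1.64), Gucy1a1 (1.62), Pde2a (1.35), Pde12 (1.18), Pde10a (1.12), Gucy1b1 (1.08), Adcy3 (0.72) and Pde4a (0.70) were higher in RiboTag D1, beside a median of -1.86 over all genes. These 10 kept their sign and call under each of 42 alternatives. The genes lower in RiboTag included those near 0 counts there.

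RiboTag libraries labelled female and male differed in 0 of 13 tested genes by edgeR, where 0.0697% of 7172 genes (5) differed. At an unadjusted p under 0.05 there were 2 of the 13, and DESeq2 called 0. The D2 to D1 difference depended on the sex label in 0 of 13 genes and 0 of all genes, with 1 of 13 and 511 genes at an unadjusted p under 0.05, and DESeq2 called 0 of 13. For Gucy1a1 that difference was 0.24 on the log2 scale (95% interval -0.02 to 0.50). Since 6 of the 12 libraries labelled male did not match their label, these values do not measure sex. Without those 6 libraries Gucy1a1 was still higher in D2 within the male label (log2 1.04, edgeR adjusted p = 0.00016), as was Gucy1b1 (log2 0.47, adjusted p = 0.000903). Of those 6, 4 were D1 and 2 were D2 libraries, so few D1 libraries remain in this check. In the main comparison within the male label, cell type is thus partly tied to this mismatch.

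Genes around these enzymes in the pathway were counted next to the share of all tested genes called. They were examined under the main processing only. Nuclear signs can depend on scaling, since DESeq2 size factors moved the median of all nuclear genes to -0.77. Of 21 genes that respond to cyclic nucleotides, 7 of 13 tested were called in nuclei, where 12.1% of all genes were, with Prkar1b (0.42) and Rapgef3 (0.84) higher in D2 and Ppp1r1b (-1.94), Akap5 (-2.25), Prkar1a (-0.94), Ppp1r1a (-0.73) and Arpp19 (-0.77) lower. Ppp1r1b encodes DARPP-32, the protein kinase A target of MSNs. In whole cells 0 of 15 were called, where 0.764% of all genes were. In each RiboTag set 1 of 14 was called, Arpp19, a kinase A substrate, at 0.51 and 0.56, where 2.56% of all genes were called with the male label and 1.9% with the female. The list median was -0.31 in nuclei, -0.11 in whole cells, 0.01 with the male RiboTag label and -0.02 with the female.

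Of 14 upstream genes, 6 of 11 tested were called in nuclei, beside the same 12.1% of all genes. The receptor genes Drd2 (higher) and Drd1 (lower) followed the labels, and the Golf subunit genes Gnal (-0.72) and Gng7 (-0.49) and the calmodulin genes Calm2 (-2.30) and Calm3 (-2.41) were lower in D2. In whole cells 5 of 12 were called, beside 0.764% of all genes, with Gng7 higher (0.89) and the Gi gene Gnai1 lower (-0.75) beside the receptors. Gnai1 was also lower in both RiboTag sets (-0.40 and -0.51), where 4 of 12 were called, beside 2.56% and 1.9% of all genes. Drd1 and Drd2 define the compared cells and Adora2a is a D2-MSN marker, so calls of these receptor genes follow from the labels. The counts for this list include such calls and do not measure the rest of the list. The medians were -0.30 in nuclei, -0.08 in whole cells, 0.14 with the male RiboTag label and 0.13 with the female. Of 7 guanylyl cyclase genes outside the Gucy1 series, the natriuretic peptide receptor gene Npr2 alone was tested in nuclei and was higher in D2 (0.98), 0 of 2 were called in whole cells, and none was tested by RiboTag.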

How the data were processed

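The authors deposited a table of raw counts of fragments per gene, with introns included. Per the labels and methods, reads were aligned with HISAT2 2.0.5 to GRCm38 (Ensembl 90) and counted with featureCounts without regard to strand. Fragments that overlapped several genes counted for each, and multi-mapping ones were left out. The table holds 49 columns, of which 0 belong to no sample. A column that repeats the number of whole cell D1 library 1 was taken as a repeat run of it. This column and a lane of D2 library 3 were summed with their libraries, leaving 47, numbered as the columns are. The paper counts more whole cell samples of each cell type, as many as these columns kept apart give. The 2 columns of D1 library 1 differed beyond counting error (chi-square per degree of freedom 8.14, against 1.04 for the lanes and 95.8 for 2 other libraries). That they are runs of 1 library is therefore not certain, and alternatives kept the repeat run apart or left it out. For whole cell D2 the labels name 8 samples, whereas the columns name 6 libraries and the lane, so these columns were assigned by group only. Genes were kept with over 1 FPM (fragments scaled to library size) in at least 2 libraries. Cell type comparisons further asked for 1 FPKM or more in 1 or more libraries and never over 50000 (RiboTag: 0.1 FPKM or more in 2 or more). Counts were tested with edgeR 4.0.16 (TMM, quasi-likelihood, R 4.3.3), with DESeq2 1.42.0 as an alternative. DESeq2 effective library sizes set the filter. The script was tested on simulated data. FPKM was computed with TMM effective library sizes and the gene span. At 3 counts a gene would have 0.0436 to 0.811 CPM, which covers counting error only. Same-numbered D1 and D2 libraries did not deviate together (correlation over 0.1 in 1 of 4 nuclear, 1 of 6 whole cell, 1 of 6 RiboTag male and 0 of 4 RiboTag female pairs), so they were not paired. The rule named Adcy5, Pde10a, Gucy1a1, genes called in a cell type comparison or method by cell type test, and the 5 highest per length in any method. Members, gene lists and tests were chosen with earlier results of these data known. The alternatives without doubted libraries were chosen after seeing the data. Of the list of upstream genes, 1 gene is not reported here.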

Additional observations from a re-analysis of the deposited data

Results flagged for a closer look

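In 4 of 88 groups of libraries 1 library lay far from the others by Dixon's test, which chance does in about 1 of 20 groups. Gucy1a1 in nuclear D1 library 6 was at 1.002 FPKM, with the others from 0.504 to 0.584. RiboTag D1 library 1 of the male label stood apart for 3 genes. Pde1a was at 0.0791 there, with the others from 0.0968 to 0.103, Pde2a at 0.558, with the others from 0.510 to 0.523, and Pde7b at 0.117, with the others from 0.0839 to 0.0950.

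The D2 to D1 log2 fold change differed between nuclei and whole cells, by the joint edgeR test of that difference, for 21 genes. It was lower in nuclei by -0.75 for Adcy1, -2.38 for Adcy5, -1.43 for Adcy9, -2.65 for Gucy1a1, -0.71 for Gucy1a2, -2.06 for Gucy1b1, -2.75 for Pde1b, -0.99 for Pde1c, -2.0 for Pde2a, -1.25 for Pde4a, -2.42 for Pde4b, -2.20 for Pde7b, -1.36 for Pde8b and -2.30 for Pde10a. It was higher in nuclei by 1.2 for Adcy10, 1.22 for Adcy7, 1.94 for Gucy1b2, 1.24 for Pde3a, 1.69 for Pde5a, 1.32 for Pde6a and 1.39 for Pde11a.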

How the results depend on the processing

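In both RiboTag sets Gucy1a1 and Gucy1b1 were called under every alternative run, 20 with the male label and 17 with the female label, at log2 0.83 to 1.21 and 0.42 to 0.51. The nuclear count of 4 called genes of 13 tested was 11 by DESeq2, 10 with its size factors, 20 of 37 tested with no FPKM filter, 21 of 36 tested with summed exons as gene length and 1 without D1 libraries 1, 5 and 6. Over all genes the 1114 nuclear calls (275 higher, 839 lower) became 4303, 3924 (74 higher, 3850 lower), 7271, 7352 and 653. Signs turned in nuclei under DESeq2, its size factors, no FPKM filter and summed exons, in that order, for Adcy1 (-0.11, -0.11, -0.46 and -0.42), Adcy9 (-0.62, -0.62, -0.95 and -0.90), Pde4a (-0.23, -0.24, -0.56 and -0.52), Pde8b (-0.64, -0.64, -0.96 and -0.91) and Pde1a (-0.49, -0.49, -0.81 and -0.77). The whole cell count of 3 became 0 with DESeq2 size factors, 0 with no FPKM filter, 0 with summed exons and 6 with the lanes kept apart, and its 125 calls over all genes became 38 (24 higher, 14 lower), 34, 34 and 358. Called by adjusted p alone, the RiboTag counts of 3 and 3 became 6 (male label) and 5 (female label). The RiboTag by whole cell test called 1 gene by DESeq2, 1 after background subtraction and 1 without the libraries led by few genes, and 0 otherwise. The cause of these changes was not tested.

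Leaving out 1 library at a time gave 2 to 4 called genes in nuclei, 1 to 5 in whole cells, 2 to 3 in each RiboTag set, 12 to 20 and 8 to 15 for nuclei against whole cells in D1 and D2, 30 to 32 for RiboTag against whole cells in each cell type and 15 to 23 for the nuclear by cell type difference. With the library number as a replicate block, 0 genes were called in nuclei (0 over all genes) and 1 in whole cells (74 over all genes), 3 and 2 in RiboTag, but the numbers did not pair the libraries. Of the values for single genes, 5644 stayed on the same side of the threshold, with values that were not called free to turn sign, 243 lost the call, 36 gained it, and 19 turned sign with a call on one side or the other. In whole cell and nuclear D2 libraries the receptor gene level, not depth, set the lowest readable level.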
